A study of Mus musculus with 6 samples.

Results

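The ADAMTS proteases are secreted zinc metalloproteinases that carry thrombospondin repeats and act on the extracellular matrix. This account covers 10 genes of the family in the mouse aorta: Adamts1, Adamts2, Adamts4, Adamts5, Adamts7, Adamts8, Adamts9, Adamts10, Adamts12 and Adamts15. Their probes were found by the gene symbol that the deposited intensity table gives, which yielded 17 of the 39362 probes measured on all arrays, with at least 1 probe for each gene. Of the 19 ADAMTS genes looked up, all were on the array, and these 10 had been picked with results of the genotype comparison known. Their differences between genotypes are therefore given as a description, and no test of the 10 genes is drawn from them. On the probe kept for each gene, all 10 had knockout and wild type values that did not overlap, as did 29.3% of all features. The 5 genes with a level of at least 0.5, a brightness explained below, are among features of which 59.2% had groups that did not overlap. Adamts14 and Adamts16, which are not among the 10, also had groups that did not overlap, and the remaining 7 family genes had overlapping groups.

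The series held 6 aorta samples of mice on a high-fat diet. In 3 of them the own RNA was labelled ApoE KO and 32 weeks of age, and in 3 it was labelled C57BL6, called wild type (WT) here, and 24 weeks of age. The tag for the genetic background of this RNA reads C57BL6 db/+ in both groups, and its source names read db/+ as well, so the labels leave the strain of these mice unsettled. Per the protocol, feeding began at 8 weeks of age and lasted 16 weeks in both groups, which fits the labelled age of the WT mice and conflicts with the 32 weeks labelled for the knockout mice, so the knockout age is unsettled too. Lesions were seen in the knockout aortas and not in the controls. Each aorta's RNA, in Cy5, was hybridised beside a common Cy3 reference of aorta RNA from high-fat-fed C57BL6 controls aged 24 weeks. The source names of WT replicates 2 and 3 carry the same number. Their ratios differ, which does not settle whether they came from separate animals. Every SE and adjusted p below counts them as separate. Headings of the other 3 arrays in the intensity table name no genotype and hold the terms 24 Week, HFD, 8 Week and Veh, which the labels do not explain. Genotype, any difference in age and any treatment those terms stand for cannot be told apart. The labels name biological replicates without saying whether aortas were pooled.

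A value below is the log2 ratio of an aorta's own RNA over the reference, so that 0 equals the reference, and a log2 fold change is the ApoE KO mean minus the WT mean, with the standard error (SE) of the limma fit across all 35028 features and n = 3 per group. A gene is said to have passed where the Benjamini-Hochberg adjusted p of that fit, over all features, was under 0.05. The level of a probe is its brightness over both channels in the arbitrary units of the intensity table, whose values are written in steps of 0.01. The arrays held from 39480 to 39551 measured probes, and precision is limited by having 3 of them per group. The targeted gene Apoe, whose product is the ligand for clearance of remnant lipoproteins, had log2 ratios of -1.31, -1.21 and -1.31 in the knockout and 0.00, -0.32 and 0.12 in the WT aortas, in the direction of the labels. Its log2 fold change was -1.21 ± 0.13 (adjusted p 0.00649 in limma), and the position of its probe relative to the deletion was not examined.

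ADAMTS enzymes are made as proenzymes, trimmed by furin-like convertases, and released to the matrix, where their ancillary domains hold them near their substrates. One branch of the family cuts the hyalectans, the large proteoglycans such as versican and aggrecan that bind hyaluronan, and versican is an abundant proteoglycan of the arterial intima. Other branches remove the amino-terminal propeptide of fibrillar procollagens, cut cartilage oligomeric matrix protein (COMP), or act at fibrillin microfibrils. Among the tissue inhibitors of metalloproteinases, TIMP3 is the main inhibitor of the aggrecan-cutting members.

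Of the 10 genes, 8 passed, 2 higher and 6 lower in the knockout aortas, where 14.7% of all features passed (6.73% higher and 8.00% lower). Because the genes were chosen from this same comparison, nothing is read from that difference. The hyalectan branch was divided: Adamts4 was higher, and Adamts1, Adamts5, Adamts8, Adamts9 and Adamts15 were lower. Both COMP-cutting genes, Adamts7 and Adamts12, had higher values, and Adamts12 did not pass. Adamts2, the procollagen N-proteinase, had higher values without passing, and Adamts10, a protease of fibrillin microfibrils, was lower. The RNA came from whole aorta, so that fewer cells of a type and less RNA per cell cannot be told apart.

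Reference promoter sequence is shown for Adamts1 and Adamts9, the genes that passed among the 4 with an entry in the RefSeq promoter table (build GRCm38.p6), because both were lower in the knockout aortas. Adamts1 is at chr16:85803114-85803363 and Adamts9 at chr6:92943535-92943784, both on the minus strand. Each run gives the 250 bases before 1 annotated start, 5′ to 3′, with matches to the searched motifs in capitals.
Adamts1: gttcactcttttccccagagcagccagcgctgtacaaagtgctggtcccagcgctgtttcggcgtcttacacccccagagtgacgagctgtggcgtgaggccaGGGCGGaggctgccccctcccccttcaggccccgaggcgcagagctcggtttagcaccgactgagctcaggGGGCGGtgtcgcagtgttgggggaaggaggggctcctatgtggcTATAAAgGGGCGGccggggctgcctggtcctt
Adamts9: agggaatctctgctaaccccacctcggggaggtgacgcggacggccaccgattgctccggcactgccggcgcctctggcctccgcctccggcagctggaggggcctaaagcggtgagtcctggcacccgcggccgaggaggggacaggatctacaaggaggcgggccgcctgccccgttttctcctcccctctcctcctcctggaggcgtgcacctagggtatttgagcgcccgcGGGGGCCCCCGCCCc
Both strands were searched for 5 motifs. The AP-1 motif was TGANTCA. For SP1 the letters were GGGCGG. The TATA box was read as TATAAA, and the NF-kappaB motif and the CArG box of serum response factor contain ambiguous letters and are given by name. Adamts1 held 3 SP1 matches and 1 TATA match, the latter beginning 32 bases before the start. Adamts9 held 1 SP1 match and 1 NF-kappaB match, which overlap. Of the other entries, Adamts2 held 5 SP1 matches and Adamts12 held 0 matches to any of the 5 motifs. Among 32851 promoter windows of the same length, 32.7% held an SP1, 12.4% a TATA and 7.25% an NF-kappaB match. AP-1 and CArG box matches were found in 0 of the 4 windows, beside 6.75% and 1.47% of all windows. A match describes letters of the reference and not binding.

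Adamts4, aggrecanase 1, had the highest fold change of the 10 genes. On the probe for NM_172845 the ApoE KO aortas gave 1.00, 0.68 and 0.77 (replicates 1, 2 and 3), and the WT aortas gave 0.04, 0.00 and 0.00. The lowest knockout value lay well above the highest WT value, and the log2 fold change was 0.80 ± 0.091 (SE), which is 1.74-fold. The gene passed in each of 15 alternative fits that measured it, with a log2 fold change between 0.50 after quantile normalization and 0.87 without ApoE KO replicate 2. Its level was 0.43, where 1 step of 0.01 equals 0.040 on the log2 scale, and the groups differed by 27.0 such steps.

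Adamts1, which cuts versican and aggrecan and is also known as an inhibitor of angiogenesis, had the lowest fold change. The probe for AB001735 gave -0.39, -0.58 and -0.56 in ApoE KO replicates 1, 2 and 3. The WT values were 0.02, 0.12 and -0.18, a spread that brings WT replicate 3 nearest to the knockout arrays. The log2 fold change was -0.50 ± 0.10, or 1.41-fold lower. The own-RNA intensity on the 3 arrays headed C57BL6 was 6.04, 6.48 and 5.24, far above the rounding step. The gene no longer passed when any array other than WT replicate 3 was left out, and its log2 fold change stayed between -0.58 and -0.43. In total Adamts1 passed in 8 of 16 alternative fits, and not after quantile normalization or with the replicate number as a block.

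Adamts8, a further member with anti-angiogenic thrombospondin repeats, was lower by a similar amount. On the probe for NM_013906 its log2 ratios were -0.40, -0.34 and -0.50 in the knockout aortas. In the WT aortas they were 0.01, 0.14 and -0.06, and the groups stood apart on every array. The log2 fold change was -0.44 ± 0.072. It did not pass without ApoE KO replicate 1 or 3 or WT replicate 1 or 2. Its log2 fold changes ran from -0.48 to -0.38 over the 6 fits that left out an array. In total Adamts8 passed in 11 of 16 alternative fits, and not after quantile normalization.

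Adamts9, a versican- and aggrecan-cutting protease that is essential in mouse development, had log2 ratios of -0.27, -0.34 and -0.36 in the knockout and 0.02, 0.02 and -0.02 in the WT aortas. The groups did not overlap and were narrow, with SDs of 0.05 and 0.02. The log2 fold change was -0.33 ± 0.028. The value comes from the probe for MMT00079898, with a level of 0.688. Probes for AK007436 (level 0.15) and AK018421 (level 0.101) gave -0.06 and 0.04 and did not pass, and the mean of the 3 probes gave -0.12 and did not pass.

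Adamts5, aggrecanase 2, and Adamts15, which also cuts versican, showed small differences on dim probes. Adamts5 had log2 ratios of -0.14, -0.20 and -0.19 in the knockout and 0.00, 0.05 and 0.00 in the WT aortas on the probe for AK036428. Its log2 fold change was -0.19 ± 0.023, equal to 3.9 rounding steps, and its 2 dimmer probes, for AK020662 and NM_011782, gave 0.02 and -0.10 without passing. The mean of the 3 probes gave -0.09 and passed, and after quantile normalization the kept probe gave -0.17 and did not pass. Adamts15 had log2 ratios of -0.09, -0.08 and -0.15 in the knockout and exactly 0.00 on each WT array. Its log2 fold change of -0.11 ± 0.021 equals 1.3 rounding steps, so its size is not resolved, and the SD of its WT ratios was 0.00. Adamts15 did not pass in 8 of 15 alternative fits, and quantile normalization brought it to -0.06.

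**Figure D1:**
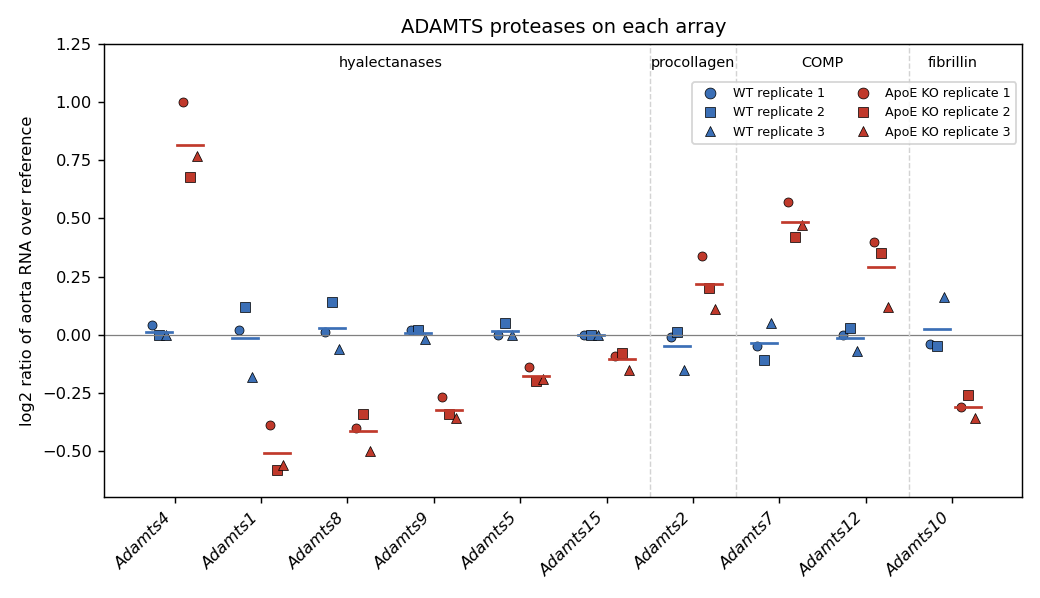
Log2 ratio of each aorta's RNA over the common reference (vertical axis) for the 10 ADAMTS genes (horizontal axis), grouped by main substrate, with 1 symbol per array and a bar at each group's mean. Adamts4, Adamts2, Adamts7 and Adamts12 have all knockout values above all WT values, and the other 6 genes have all knockout values below them.

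Adamts7, which cuts COMP and is studied in smooth muscle cell migration, stood at 0.57, 0.42 and 0.47 in the 3 ApoE KO aortas. The WT values were -0.05, -0.11 and 0.05, and the gap between the groups was wider than either group's range. The log2 fold change was 0.52 ± 0.061, or 1.43-fold, on the probe for AL359935 with a level of 0.303. Adamts7 passed in 14 of 15 alternative fits.

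Adamts12, the closest relative of Adamts7 in the family, had log2 ratios of 0.40, 0.35 and 0.12 in the knockout and 0.00, 0.03 and -0.07 in the WT aortas. ApoE KO replicate 3 lay near the WT range, and the log2 fold change of 0.30 ± 0.085 did not pass. It passed in 4 of 15 alternative fits, at 0.39 without that array, at 0.35 after centring on the brighter features (level 0.5 or more), and at 0.30 without features at a level under 0.1. Dimmer probes for MMT00062339 and AK048612 gave 0.00 and 0.05, with values that overlapped between genotypes. The mean of the 3 probes, the remaining fit in which it passed, gave 0.12.

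Adamts2, whose product removes the amino propeptide of type I and III procollagens, was measured by a pair of bright probes that differed. On the probe for AK029026 (level 9.83) the log2 ratios were 0.34, 0.20 and 0.11 in the knockout and -0.01, 0.01 and -0.15 in the WT aortas, with a log2 fold change of 0.26 ± 0.079. On the probe for AW476152 (level 4.68) they were 0.01, 0.11 and 0.07 in the knockout and 0.05, -0.04 and -0.01 in the WT aortas, with overlapping groups and a log2 fold change of 0.06 ± 0.038. Neither passed over all features, nor did their mean at 0.16, and the first passed in the fit restricted to the 9034 brighter features, where 43.4% passed (19.0% higher and 24.5% lower).

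Adamts10, whose human counterpart is mutated in Weill-Marchesani syndrome, had log2 ratios of -0.31, -0.26 and -0.36 in the knockout aortas. The WT values were -0.04, -0.05 and 0.16, with WT replicate 3 above the other arrays of its group. The log2 fold change was -0.34 ± 0.069. The gene did not pass when any array other than WT replicate 3 was left out. Centring each array on the median of its features with a level of at least 0.5 gave a log2 fold change of -0.29 without passing. In total Adamts10 passed in 7 of 16 alternative fits.

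**Figure D2:**
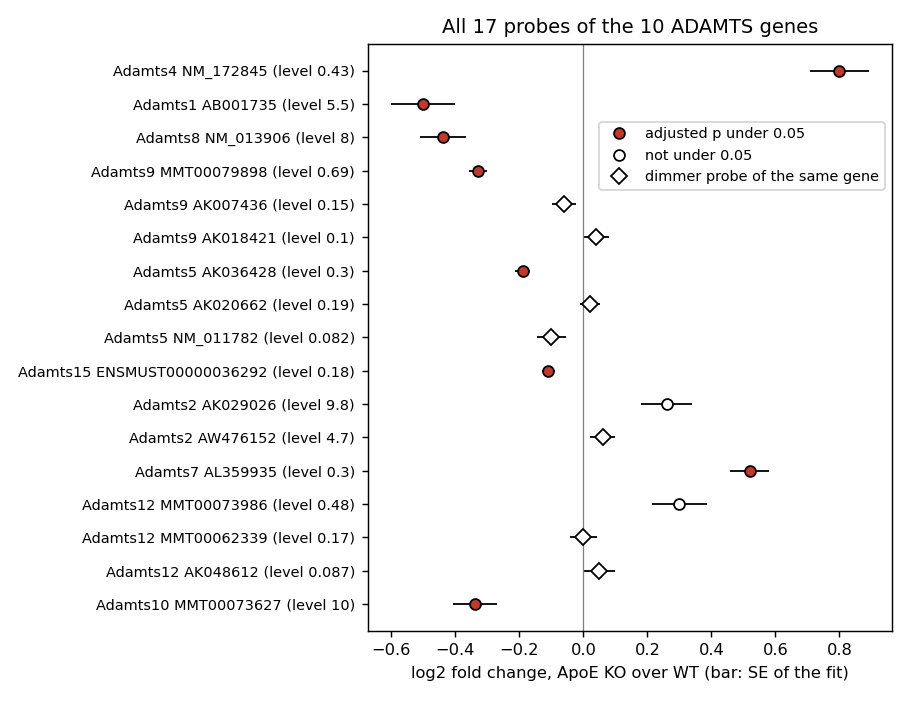
Log2 fold change of ApoE KO over WT (horizontal axis, bar for the SE of the fit in which every probe is a feature, n = 3 per group) for all 17 probes of the 10 genes, with each probe's level in its label. The 7 dimmer probes of Adamts2, Adamts5, Adamts9 and Adamts12 lie between -0.10 and 0.06, nearer to 0 than the brightest probe of the same gene.

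Of the 7 additional probes, belonging to 4 genes, 0 passed in the limma fit of every probe as its own feature, beside 14.1% of all probes, and all 7 had overlapping groups. At an unadjusted p under 0.05 the count was 0. On the 6 of them with a level under 0.2, 1 rounding step equals 0.077 to 0.163 on the log2 scale, and each probe's difference was smaller than its own step.

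The arrays were also compared within the knockout group. All 4 genes with higher values had their highest ratio in ApoE KO replicate 1, among them Adamts4 at 1.00 against 0.68 and 0.77. Of the 6 genes with lower values, 4 had their lowest ratio in ApoE KO replicate 3 and 2 in replicate 2. The share of all features with such an order was not counted, so nothing about the ADAMTS genes is read from it. Cardiac muscle markers, of which 0 of 10 passed, varied across the same arrays, where their median log2 ratios were -0.64, 0.34 and 0.71 in the ApoE KO and 0.02, -0.79 and -0.02 in the WT aortas (replicates 1, 2 and 3 in turn). Their part in the ADAMTS values was not tested.

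Macrophage and smooth muscle markers differed between genotypes. Of all features 14.7% passed, and of those with a level of at least 0.5, 30.9% did. Of 12 macrophage markers, 11 rose and 0 fell, with median log2 ratios of 1.58 to 1.67 in the knockout and -0.19 to 0.05 in the WT arrays. Of 10 smooth muscle markers, 0 rose and 8 fell, and their medians ran from -0.60 to -0.51 in the knockout and from -0.01 to 0.07 in the WT arrays. Of the smooth muscle markers, desmin (Des) and Myocd did not pass, with levels of 0.0451 and 0.227. Cd68 was the macrophage marker that did not pass, with a log2 fold change of 0.15 and a level of 0.539. The dimmest macrophage marker, the scavenger receptor gene Msr1 (0.0857), did pass. Among 10 markers of fibroblasts and adventitia, 3 rose and 3 fell. Of 10 endothelial markers 4 rose, of 9 chondrocyte markers 3 rose, and of 9 adipocyte markers 1 fell, the dim leptin gene Lep. The chondrocyte markers that rose, Col2a1, Col11a1 and Hapln1, had levels under 0.5. The brighter Chad, Acan, Comp and Sox9 were at 1.27, 0.37, 0.26 and -0.16 and did not pass. Col2a1, Hapln1 and the endothelial marker Vwf, which rose, are also counted in the lists below. So are Acan, Comp, Dcn and Matn3, which did not pass. Beside the shares above, the counts of these other cell types are not read as a result. What the marker shifts contribute to the ADAMTS values was not tested.

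These genes were picked with results of the genotype comparison known, so a shared direction of chromosomal neighbours is a description only. Adamts1 and Adamts5 are neighbours on chromosome 16, with 1 long noncoding gene and 0 protein-coding genes between them in the RefSeq annotation. Adamts8 and Adamts15 are neighbours on chromosome 9, with 0 annotated genes between them. All 4 had lower values in the knockout aortas, with log2 fold changes of -0.50 and -0.19 for the first pair and -0.44 and -0.11 for the second. Of the 10 genes, 6 had lower values. The Adamts15 difference equals 1.3 rounding steps, and the dimmer Adamts5 probes gave 0.02 and -0.10.

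The genes whose 6 log2 ratios were nearest to those of Adamts4, among named features with a level of at least 0.5, were Emp1, a membrane protein gene, Rrm2, a subunit of ribonucleotide reductase, and B2m, the light chain of MHC class I, with root mean square differences of 0.065, 0.067 and 0.074. For Adamts1 the nearest were Taf1a, Trp53inp1 and Eppk1, at 0.055, 0.057 and 0.060. These distances are over 6 arrays and describe likeness of pattern only.

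The 9 ADAMTS genes outside the selection were mostly dim, 7 of them with a level under 0.5. Of these 9, 0 rose and 1 fell, where 14.7% of all features passed. Their median log2 fold change was -0.13, beside -0.02 over all features. The gene that fell was Adamts16, by -0.13 ± 0.0052 (adjusted p 0.00071 in limma), which equals 0.9 of a rounding step with all 3 WT ratios at exactly 0, so its size is not resolved. The brighter Adamts6 and Adamts14 did not pass, with log2 fold changes of -0.22 ± 0.13 and -0.24 ± 0.058.

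The ADAMTS-like proteins have the ancillary domains of the family without the protease. Of 7 measured, 0 rose and 2 fell, with a median log2 fold change of -0.13, where 14.7% of all features passed. Adamtsl2, a fibrillin-binding protein mutated in human geleophysic dysplasia, fell by 0.54 on the log2 scale (SE 0.090, adjusted p 0.0242 in limma). Its log2 ratios averaged -0.56 in the knockout and -0.02 in the WT aortas. Thsd4, also called Adamtsl6, which binds fibrillin-1, fell by 0.50 (SE 0.058, adjusted p 0.00852 in limma). Neither passed after quantile normalization (adjusted p 0.278 and 0.141), the mean of the probes for Thsd4 gave -0.12 without passing, and Adamtsl2 passed in 1 of the 6 fits that left out an array.

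Of 21 measured substrates of the family, 4 rose and 2 fell, with a median log2 fold change of 0.15. Of all features 14.7% passed, and of those with a level of at least 0.5, among them 12 of the substrates, 30.9% did, so the count does not set the list apart. It was 1 without ApoE KO replicate 1, 2 without ApoE KO replicate 2 or WT replicate 1, and 3 without ApoE KO replicate 3. Other settings gave from 1 after quantile normalization to 10 after centring on the brighter features or without features at a level under 0.1. The procollagen chains Col3a1 and Col1a1, cut by Adamts2, rose by 0.65 ± 0.098 and 0.51 ± 0.038 (adjusted p 0.0182 and 0.00244 in limma), and the cartilage collagen Col2a1 rose by 0.42 ± 0.084. Vwf, the plasma substrate of Adamts13, rose by 0.47 ± 0.067. Fmod, the small proteoglycan fibromodulin, and Ncan, the brain hyalectan neurocan, fell, with log2 fold changes of -0.12 and -0.41. The Fmod difference equals 2.2 rounding steps. Versican (Vcan) was at 0.08 ± 0.041 and aggrecan (Acan) at 0.37 ± 0.096, and neither passed, although the Acan groups did not overlap. Comp, the substrate of Adamts7 and Adamts12, was at 0.26 ± 0.13 with overlapping groups. Of these 6 genes, Col3a1 alone passed after quantile normalization (adjusted p 0.0357 in limma). With each of the 6 arrays left out in turn, Col1a1 passed in 6 fits, Vwf in 3, Col3a1 in 2, Ncan and Fmod in 1 each and Col2a1 in 0. Col3a1 did not pass without ApoE KO replicate 1 or without any single WT array, and Vwf did not pass without ApoE KO replicate 1 or 2 or WT replicate 2.

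Of 14 inhibitors, activators and clearance factors, 3 rose and 2 fell, with a median of 0.02. Of all features 14.7% passed, and of those with a level of at least 0.5, among them 9 of the 14, 30.9% did. The count therefore does not set this list apart. Timp1, a broad metalloproteinase inhibitor, rose by 1.78 ± 0.069 (3.44-fold; adjusted p 0.00071 in limma), from log2 ratios averaging -0.03 in the WT to 1.75 in the knockout aortas. Timp2 rose by 0.36 ± 0.028, and Timp3 was at 0.03 ± 0.080 with overlapping groups on a bright probe (level 46.8). Grn, the progranulin gene, whose product binds Adamts7 and Adamts12, rose by 0.52 ± 0.046. The proprotein convertase genes Pcsk7 and Pcsk5 fell, with log2 fold changes of -0.27 and -0.13, the latter 0.9 of a rounding step, while Furin was at 0.17 ± 0.050 without passing. Lrp1, the endocytic receptor that clears Adamts4 and Adamts5, was at 0.18 ± 0.17, and Sdc4 and Reck, at -0.03 and -0.37, did not pass. After quantile normalization Grn and Pcsk7 no longer passed (adjusted p 0.181 and 0.163 in limma).

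Among 9 genes of hyaluronan and its link proteins, 4 rose and 1 fell, with a median of 0.13. Here too 14.7% of all features passed, and 30.9% of those with a level of at least 0.5. Cd44, the hyaluronan receptor, rose by 1.07 ± 0.033 (0.60 as the mean of its probes, which also passed) and Has1, a hyaluronan synthase, by 0.66 ± 0.081. Hapln1, the link protein that ties hyalectans to hyaluronan, rose by 0.54 ± 0.036 and Tnfaip6, a hyaluronan-binding protein of inflammation, by 0.49 ± 0.061. The dim Has3 fell, with a log2 fold change of -0.34, equal to 1.7 rounding steps. Has3 passed in 0 of the 6 fits without 1 array. Of 8 measured cytokine genes that induce or repress ADAMTS genes in cultured cells, 2 rose and 2 fell, with a median of -0.07. The same background shares apply to this count. Il6 rose by 2.44 ± 0.12 and Il1b, an inducer of Adamts4 in cultured chondrocytes, by 1.63 ± 0.17. Tgfb3 and Tgfb1 fell, with log2 fold changes of -0.39 and -0.17, the latter 2.9 rounding steps, and Tnf was at -0.09 without passing. Tgfb1 passed in 3 of the 6 fits that left out an array, and not without ApoE KO replicate 2 or WT replicate 2 or 3. After quantile normalization, Cd44 and Il6 kept an adjusted p under 0.05 in limma (0.0031 and 0.0106) and the other 7 did not. Osm was not found among the features.

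**Figure D3:**
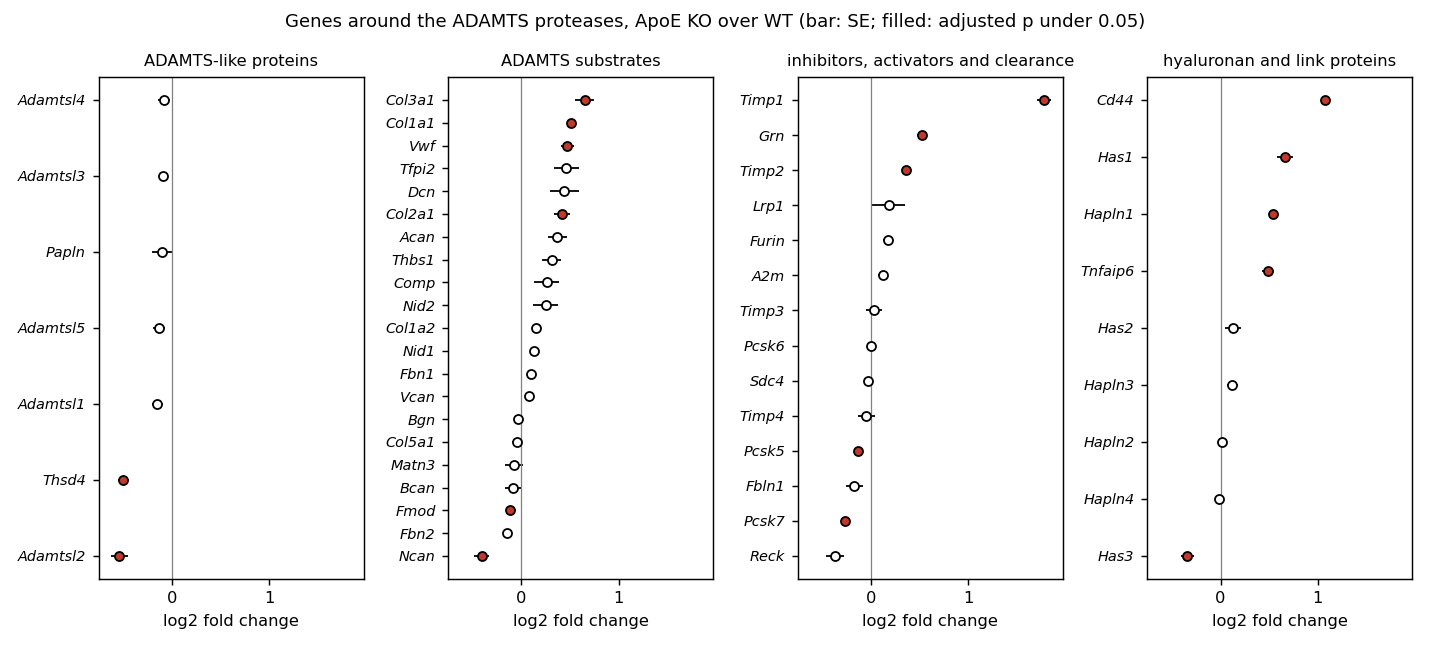
Log2 fold change of ApoE KO over WT (horizontal axis, bar for the SE of the limma fit, n = 3 per group) for ADAMTS-like genes, substrates, inhibitors and activators, and hyaluronan genes, filled where the adjusted p was under 0.05. Timp1 at 1.78 and Cd44 at 1.07 lie farthest to the right, and Adamtsl2 at -0.54 lies farthest to the left.

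The direction of each of the 10 ADAMTS differences was the same in all alternative fits, and the number that passed was not. Quantile normalization, which gives all 6 arrays the same distribution although the knockout ratios spread more widely (SD 0.236 to 0.259) than the WT ratios (0.076 to 0.136), left Adamts4 and Adamts7 passing and 0 of the 6 lower genes. Centring each array on the median of its features with a level of at least 0.5 gave 3 higher and 4 lower ADAMTS genes, and it turned the split over all features from 2357 higher and 2801 lower to 3205 higher and 1773 lower.

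**Figure D4:**
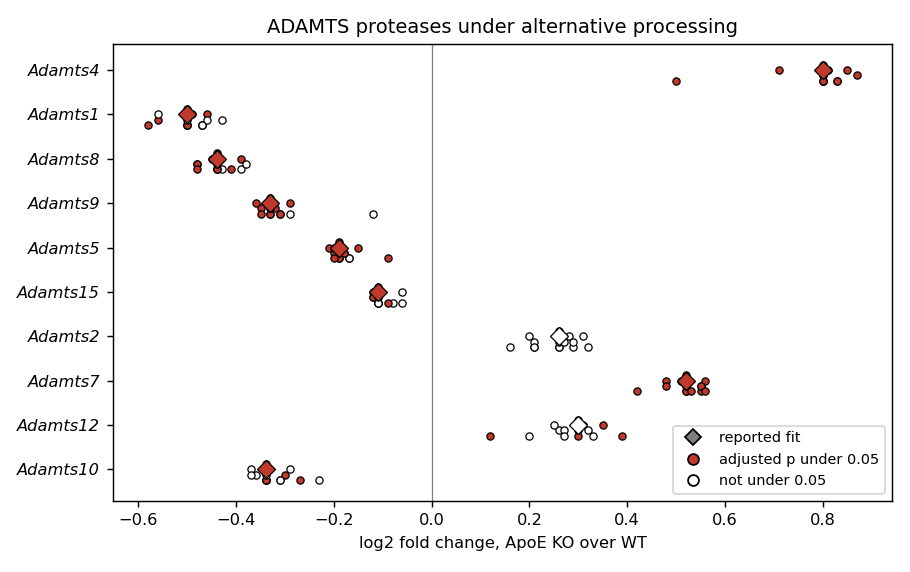
Log2 fold change of ApoE KO over WT (horizontal axis) of the 10 ADAMTS genes in the reported fit (diamonds) and in 15 or 16 alternative fits each (circles, set apart vertically for legibility), filled where the adjusted p was under 0.05. No gene crosses 0, Adamts4 runs from 0.50 to 0.87, and Adamts2 and Adamts12 are mostly unfilled.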

How the data were processed

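Total RNA of 6 aorta samples was amplified and hybridised to 2-colour Agilent arrays. The submitters' processing notes name Agilent Feature Extraction 8.5.1.1. The values deposited by the authors are log10 ratios (own RNA against reference), here converted to log2. The deposited intensity table gave the intensity of both channels for the 3 arrays headed C57BL6. Background correction, dye normalization and centring are not stated in the labels. That table has 18 per-sample columns, and 12 were left unused, since 3 headings name no group and p-values were not needed. The sorted WT ratios of both tables matched within 0.002 (log10) for 100.0% of probes, which set scale and direction for the WT arrays; for the ApoE KO arrays the direction rests on the labelled dyes.

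A probe's level averaged its mean reference intensity and that intensity multiplied by the mean linear ratio of the 6 arrays. Probes were named by RefSeq accession, symbol or synonym (GRCm38.p6), and each symbol was represented by its brightest probe, giving 35028 features from 39362 probes without missing values. Groups, from the Cy5 genotype labels, were compared with lmFit and eBayes in limma 3.58.1 (R 4.3.3), two-sided. The fit was also run on simulated data in which only features with a level of at least 0.5 were changed. That run therefore does not check the calls of dimmer genes. Members and lists were chosen with earlier results of these data known. All ADAMTS genes of the selection were named, and of each list up to 6 genes that passed, in order of p. List genes named without passing were chosen after their values were seen. Alternatives covered probe choice, scaling, dim features, variance model, array weights, the replicate number as a block and each array left out. Over all features, same-numbered arrays of the groups did not deviate together (correlations 0.089, -0.193 and -0.026), so the numbers were not taken as pairs.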

Additional observations from a re-analysis of the deposited data

How the results depend on the processing

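Over 16 alternatives, no ADAMTS gene changed direction. Of all 35028 features 5158 passed (14.7%), with 1651 after quantile normalization and 2582 with the replicate number as a block. Of the 10 ADAMTS genes 8 passed, and 2 and 3 did so under the same settings. With quantile normalization 0 of the lower ADAMTS genes passed, and with the replicate block 1 higher and 2 lower. The fit restricted to a level of at least 0.5 holds only 5 of the 10 ADAMTS genes. All 5 passed, 1 of them higher, where 43.4% of its 9034 features passed (19.0% higher and 24.5% lower). Of 68 genes in the pathway lists 23 passed, and 7 and 15 did so under quantile normalization and the replicate block. Over all features the same-numbered arrays did not deviate together. With the block, the SE was larger for Adamts5 and Adamts10 and smaller for the other ADAMTS genes, such as Adamts8 (0.0194 against 0.0716). The log2 fold changes of the ADAMTS genes were the same with and without the block. With each array left out in turn, the ADAMTS genes that passed numbered from 4 to 7 (2 to 3 higher, 2 to 5 lower). They numbered 4 without ApoE KO replicate 1, WT replicate 1 or WT replicate 2. Over the same fits, all features passing ran from 3516 to 4901 and pathway genes from 17 to 22. Array weights raised the count over all features to 6884. Rounding to 0.01 limits the dim genes, and the cause of each lost call was not tested.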
